A study of Saccharomyces cerevisiae with 72 samples.

Results

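Thiamine, vitamin B1, can be made by budding yeast or taken up from the medium. The 10 genes described here, THI4, THI20, THI6, THI80, THI7, THI73, PHO3, THI2, THI3 and PET18, act in its synthesis, uptake or control, or carry names given to thiamine-regulated genes. They were taken by name from the annotation of the array's probe sets and are 10 of the 5656 genes that had a probe set reading that gene alone. Each of the 10 was read by a single probe set, and all 10 passed the filter on dim probe sets, as did 5409 of the 5656 genes. The set was chosen by the log2 signals of THI4 and THI73, which read lower in untreated gcn4 strains than in untreated wild type. Comparisons that include untreated gcn4 or gcn4 gln3 arrays are therefore given as descriptions with no test. For THI4 and THI73 the same holds for every comparison that includes the untreated wild-type arrays.

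Total RNA from Saccharomyces cerevisiae was hybridised to 72 Affymetrix arrays, 4 for each of 18 groups formed by 6 genotypes and 3 conditions. The genotypes were wild type (strain KY652), gcn2 (KY654), gcn4 (KY656), gln3 (KY640), gcn2 gln3 (KY641) and gcn4 gln3 (KY643). The growth medium held 2% dextrose, 0.5% ammonium sulfate and all amino acids other than histidine. Cultures were left untreated or were exposed for 1 hour to 10 mM 3-AT, an aminotriazole that inhibits histidine synthesis, or to 200 nM rapamycin, an inhibitor of the TOR kinase complex that senses nutrients. Gcn2 is the kinase that uncharged tRNA activates. Its activity raises translation of Gcn4, an activator of amino acid synthesis genes. Gln3, a GATA-type activator of nitrogen catabolism genes, stays in the cytoplasm while TOR is active. The labels do not say whether the 4 arrays of a group came from separate cultures or whether a strain was 1 clone, and the p-values cover the spread between arrays alone, which may be technical.

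Thiamine is assembled from a pyrimidine unit and a thiazole unit, each made on its own branch before they are joined. Its diphosphate is the cofactor of pyruvate decarboxylase, transketolase and other enzymes. In yeast the genes of the pathway are repressed when thiamine is plentiful and are activated together through Thi2, Thi3 and Pdc2 when it runs short. Thi4 makes the thiazole unit, giving up a sulfur of its own in a single turnover. Thi20 phosphorylates the pyrimidine unit, Thi6 joins the phosphorylated units into thiamine phosphate, and Thi80 makes thiamine diphosphate from thiamine. Thi7 is the plasma membrane thiamine transporter, Pho3 is an acid phosphatase that releases thiamine from its phosphates outside the cell, and Thi73 is a putative permease related to the allantoate transporter Dal5. Pet18 resembles the TenA proteins of thiamine salvage, known from bacteria.

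The signals are MAS5 signals on a linear scale, with array medians between 259 and 400.2. GCN4 read 15530.4 ± 1085 (SD, n = 4) in untreated wild type and was above background on none of the 24 arrays of gcn4 and gcn4 gln3 strains; GLN3 was likewise above background on none of the 36 arrays of strains that lack it. GCN2 read 95.9 ± 19.5 in untreated gcn2 and 229 ± 26.5 in untreated wild type, so its probe set was lower but not silent in the mutant. On 3 arrays the 3′ to 5′ ratio of the actin probe sets, a sign of RNA quality, was above 20, against 1.31 to 5.03 on the other 69. These were replicate 1 of gcn2 gln3 with 3-AT, replicate 1 of gcn2 gln3 with rapamycin, and replicate 2 of gcn4 gln3 with rapamycin. On the last of them 5 of the 10 genes were above background and PHO3 read 64007, while the other 3 arrays of that group read 3480 to 6302. Called differences that rest on these arrays are given with and without them, and the part of RNA quality in those results was not tested. The 3 arrays also enter the spread that all comparisons share: the median residual SD over all probe sets was 0.41 with them and 0.28 without. Replicate 3 was the highest array in 110 of the 180 sets of 4 readings that 10 genes and 18 groups give, 17 of 18 for THI4 and for PET18, and the labels do not say what a replicate number shares.

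Differences below are log2 differences between group means with the standard error (SE) from a limma fit over all 18 groups, and a gene was called where its Benjamini-Hochberg adjusted p, taken over all 6869 probe sets tested, was below 0.05. The share of all tested probe sets called in the same comparison is given as the background for each count. Where a call is said to be lost without a replicate, the arrays of that number were left out of every group.

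In cells treated with 3-AT, the gcn4 strain had lower signals than wild type for 5 of the 10 genes: the transporters and phosphatase THI73, THI7 and PHO3, the activator THI2, and the pyrimidine kinase THI20. None of the 10 was higher. In that comparison 6.83% of all tested probe sets were lower and 15.5% were called in either direction. The median difference of the 10 genes was -0.98, and that of all tested probe sets was 0.10. Without the 3 arrays with a high actin ratio, which enter here only through the shared spread, 8 of the 10 were lower. PET18, THI6 and THI3 were added, and 31.5% of all probe sets were called in either direction. In either fit THI4 and THI80 were not called. The gcn2 strain had 5 lower than wild type and none higher, where 5.26% of all probe sets were lower: THI73, PHO3, THI2, THI20 and PET18. With each array centred on its median, the lower probe sets of all those called against wild type in gcn2 rose from 361 to 444 and the higher ones went from 302 to 232. In the strain without Gln3 limma called none of the 10 against wild type under 3-AT, where 1.57% of all probe sets were called, and 1 of the 10 had an unadjusted p below 0.05. Between gcn2 and gcn4 under 3-AT limma called none of the 10, where 0.349% of all probe sets were called, and 2 of the 10 had an unadjusted p below 0.05. In gcn4 gln3 under 3-AT 5 genes were again lower than in gln3, THI73, PHO3, THI20, THI2 and PET18, against 7.60% of all probe sets, and with the replicate number as a block THI7 was added (-0.79 ± 0.30, adjusted p = 0.045; range over all alternatives 0.00019 to 0.26). All probe sets split there into 760 higher and 522 lower, or 544 and 708 after centring on the median.

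**Figure D1:**
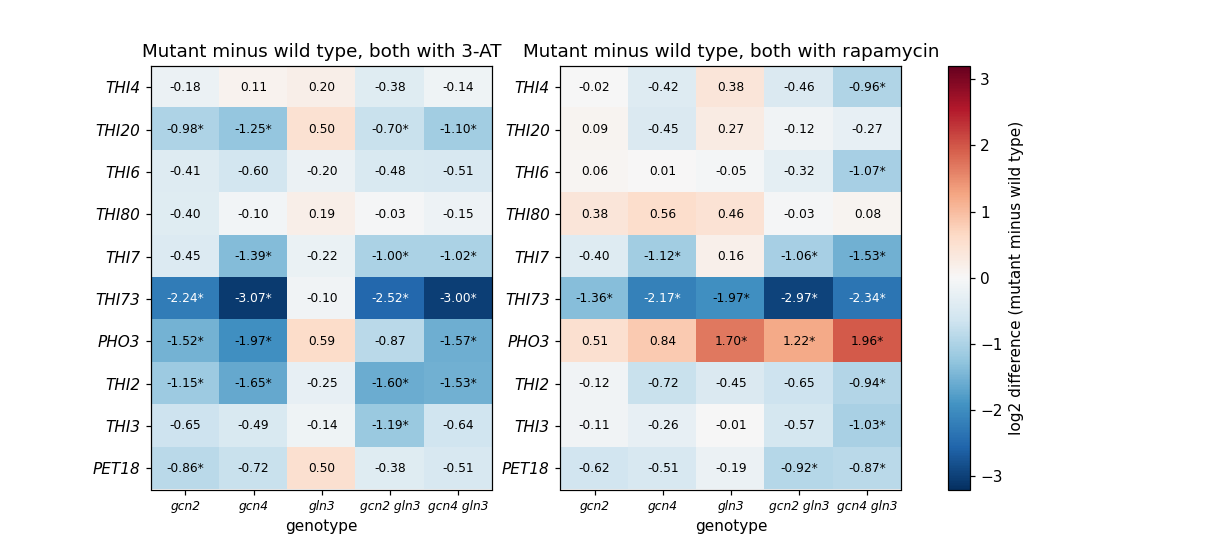
Log2 difference between each mutant and wild type for the 10 genes (rows), with 3-AT on the left and rapamycin on the right; colour and printed value give the difference of the means of 4 arrays each, and an asterisk marks an adjusted p below 0.05. THI73 is the darkest blue row in every mutant except gln3 with 3-AT, where it read -0.10, and PHO3 turns from blue under 3-AT to red under rapamycin in the gcn4 column (-1.97 and 0.84, the latter not called). The gcn4 gln3 column on the right includes the array with a high actin ratio.

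THI4, a synthesis gene, had its highest group mean in untreated wild type, as did THI20, THI80 and THI7. The 4 untreated wild-type arrays read 1275, 444, 2277 and 1831. Replicate 2 was low and lay inside the range of the mutants, and the other 3 were above every other THI4 reading in the series. With 3-AT the wild-type arrays read 449, 431, 509.5 and 443, and with rapamycin they read 383, 285, 677 and 364. The untreated arrays of gcn4 read 389, 240.5, 602 and 363, a difference from untreated wild type of -1.71 ± 0.34 (SE), and those of gcn4 gln3 read 175, 186, 287 and 200.1, the lowest group mean of the gene, with a difference of -2.57 ± 0.34. These are the values that chose the gene, and 1.21% and 1.19% of all tested probe sets were called in those comparisons. The other untreated mutants also read lower than wild type, with differences of -1.16 ± 0.34 in gcn2, -1.06 ± 0.34 in gln3 and -2.03 ± 0.34 in gcn2 gln3, given with no test because they share the untreated wild-type arrays.

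With either drug present, THI4 was called between no single mutant and wild type. The arrays of gcn4 with 3-AT read 519.9, 473, 635 and 379, a difference from wild type with 3-AT of 0.11 ± 0.34 (adjusted p = 0.88). The gcn2 and gln3 strains differed from wild type by -0.18 ± 0.34 and 0.20 ± 0.34 under 3-AT, and neither was called. Under rapamycin the differences were -0.02 ± 0.34 for gcn2, -0.42 ± 0.34 for gcn4 and 0.38 ± 0.34 for gln3, none of them called. Within gcn2, gln3 and gcn2 gln3, whose untreated arrays were not used to choose the gene, the response to 3-AT was -0.45 ± 0.34, -0.18 ± 0.34 and 0.21 ± 0.34, and that to rapamycin was -0.47 ± 0.34, -0.16 ± 0.34 and -0.04 ± 0.34. None of these responses was called. The responses in wild type, given with no test, were -1.44 ± 0.34 to 3-AT and -1.61 ± 0.34 to rapamycin.

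**Figure D2:**
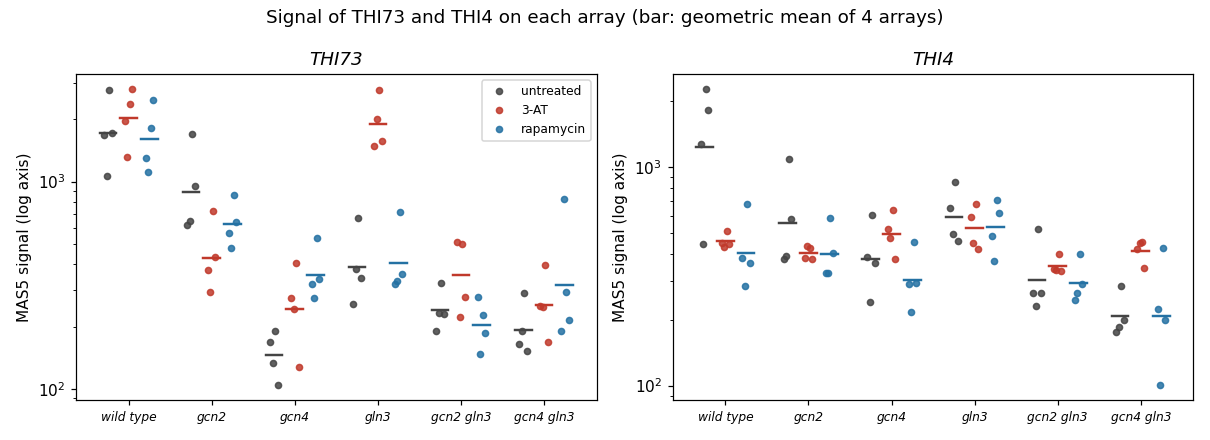
MAS5 signal of THI73 and THI4 on each of the 72 arrays, on a log axis, by genotype and treatment; each point is 1 array and each bar the geometric mean of 4 arrays. For THI73 the 4 gln3 arrays with 3-AT lie at 1481 to 2775, in the range of wild type, while the gln3 arrays without it lie at 258 to 715. For THI4 the untreated wild-type arrays, apart from 1 at 444, lie above all others.

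THI20, the pyrimidine kinase gene, was lower under 3-AT in the strains without Gcn4 or Gcn2. Wild-type arrays read 2706, 2599.7, 3261 and 2969.8 untreated and 1209.7, 1249, 2069 and 1483 with 3-AT, with no overlap between the groups. The arrays of gcn4 with 3-AT read 578, 576, 678 and 648 and those of gcn2 with 3-AT read 619, 699, 983 and 724. All 8 of these lay below every wild-type array with 3-AT. The difference from wild type was -1.25 ± 0.20 for gcn4 (adjusted p = 2.3e-06) and -0.98 ± 0.20 for gcn2 (adjusted p = 0.00026). In the gln3 background, with 2231, 1977, 2610.5 and 1598 in gln3 and 701, 616, 836 and 606 in gcn4 gln3 under 3-AT, the difference was -1.60 ± 0.20 (adjusted p = 5e-09), again with no overlap. THI20 fell with 3-AT in wild type (-0.97 ± 0.20, adjusted p = 8.7e-05) and in gcn2 (-1.58 ± 0.20, adjusted p = 3.3e-09), while in gln3 the response was -0.06 ± 0.20 and not called. With rapamycin the gcn4 strain read 1346, 1034, 1303 and 1031 against 1656, 1330.3, 1823 and 1636 in wild type, a difference of -0.45 ± 0.20 that was not called (adjusted p = 0.2).

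THI6, which encodes the enzyme that joins the units, and THI80, which encodes the one that adds the diphosphate, gave few calls. Group means of THI6 ran from 641 in untreated gcn4 to 1433 in wild type with 3-AT. Its difference between gcn4 and wild type was -0.60 ± 0.34 under 3-AT and 0.01 ± 0.34 under rapamycin, neither called, and no drug response of THI6 was called in wild type, gcn2, gln3 or gcn2 gln3. In the fit without the 3 arrays with a high actin ratio THI6 was called higher with 3-AT in wild type, gln3 (0.76 ± 0.15, adjusted p = 1.5e-05; range over all alternatives 1.3e-09 to 0.31) and gcn2 gln3, and with rapamycin in gcn2, gln3 (0.74 ± 0.15, adjusted p = 2.7e-05; range 3.3e-09 to 0.32) and gcn2 gln3. The arrays of gcn4 gln3 with rapamycin read 1151, 86.6, 1314 and 979.5, and THI6 was called lower there than in wild type (-1.07 ± 0.34), gln3 (-1.02 ± 0.34) and gcn4 (-1.09 ± 0.34). Replicate 2 is 1 of the 3 arrays with a high actin ratio, and without those 3 arrays the differences were -0.14 ± 0.16, -0.09 ± 0.16 and -0.16 ± 0.16, none of them called. THI80 was dim, above background on 52 of 72 arrays and on none of the gcn2 arrays with 3-AT. Its 1 call in a tested comparison was the fall with rapamycin in wild type, -0.74 ± 0.27 (adjusted p = 0.021), from arrays reading 195, 137, 136 and 168 to arrays reading 169, 68.1, 81.1 and 82.9, of which 1 was above background, and it was lost without replicate 2, 3 or 4 (range of adjusted p over all alternatives 5e-05 to 0.15).

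Of the uptake genes, THI73 had the widest differences between strains. Wild-type arrays read 1684, 1069, 2772 and 1722 untreated, 1969, 1317, 2363 and 2799 with 3-AT and 1299, 1114, 1823 and 2467 with rapamycin, so the 3 conditions overlapped. The arrays of gcn4 read 169, 133, 191 and 104 untreated, 276, 242, 407 and 127 with 3-AT and 321, 275, 535 and 338 with rapamycin, and all 12 lay below every wild-type array. As a description, the untreated difference that chose the gene was -3.56 ± 0.37. On arrays that did not enter that choice, the difference was -3.07 ± 0.37 under 3-AT (adjusted p = 2.3e-09) and -2.17 ± 0.37 under rapamycin (adjusted p = 2.5e-05). Under rapamycin 2 of the 10 genes were lower in gcn4, THI73 and THI7, where 3.13% of all probe sets were lower. Leaving out the 3 arrays with a high actin ratio, none of which is in this comparison, gave 3 lower, THI2 being added, and 1 higher, PHO3. The share of all probe sets called in either direction went from 6.59% to 19.7% with that change. Without replicate 1 there were 1 lower and 1 higher, and without replicate 3 or 4 there was 1 lower.

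THI73 also read lower without Gln3, except when 3-AT was present. Arrays of gln3 read 258, 380.0, 668 and 342 untreated, 322, 331, 715 and 359.6 with rapamycin and 1481, 2015, 2775 and 1568 with 3-AT. The 4 arrays with 3-AT overlapped those of wild type and lay above all 8 other gln3 arrays. Under rapamycin the difference from wild type was -1.97 ± 0.37 (adjusted p = 0.00019), and under 3-AT it was -0.10 ± 0.37 (adjusted p = 0.99). The response of THI73 to 3-AT in gln3 was a rise of 2.29 ± 0.37 (adjusted p = 1.6e-06), and 3-AT against rapamycin in gln3 gave 2.22 ± 0.37 (adjusted p = 3.9e-06). The test of whether that contrast between the drugs differed from wild type, added after the values were seen, gave 1.87 ± 0.53 and did not pass (adjusted p = 0.098); without the 3 arrays with a high actin ratio the adjusted p was 0.016, and over all alternatives it ranged from 2.3e-05 to 0.81.

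Arrays of gcn4 gln3 with 3-AT read 249.8, 249, 398 and 167, a difference from gln3 with 3-AT of -2.90 ± 0.37 (adjusted p = 1.1e-08). Those of gcn2 gln3 with 3-AT read 512, 222, 499 and 278, a difference from gln3 of -2.42 ± 0.37 (adjusted p = 1.3e-06), or -2.60 ± 0.37 without the array with a high actin ratio, the first of the 4. In both double mutants all 4 arrays lay below all 4 gln3 arrays. The gcn2 strain read 374, 294, 724 and 431 with 3-AT, lower than wild type by a log2 difference of -2.24 ± 0.37 (adjusted p = 6.9e-06) and lower than its own untreated arrays, 621, 643, 1692 and 953, by -1.06 ± 0.37 (adjusted p = 0.02). The last call was lost without replicate 1 or 4 (range of adjusted p over all alternatives 2.9e-05 to 0.094). Without treatment gcn2 gln3 read 189.5, 232, 324 and 231, and its difference from untreated gcn2 was -1.90 ± 0.37 (adjusted p = 0.0024), the 1 call among the 10 genes in that comparison, where 0.510% of all probe sets were called. Without the 3 arrays with a high actin ratio, which enter here only through the shared spread, 5 of the 10 were lower, THI7, THI20, THI2 and PET18 being added, where 2.10% of all probe sets were called. The THI73 call was lost without replicate 4 and in a fit of the compared arrays alone (range of adjusted p over all alternatives 3.5e-09 to 0.16).

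THI7, the thiamine transporter gene, was lower in gcn4 than in wild type under both drugs. Arrays of untreated wild type read 19889, 16855, 15297 and 19665 and those of untreated gcn4 read 4552, 4526, 6248 and 4607, with no overlap, a difference of -1.85 ± 0.32 that is given with no test. With 3-AT wild type read 14476, 8459, 13598 and 12339 and gcn4 read 4285, 4455, 6110.1 and 3708, again with no overlap, and the difference was -1.39 ± 0.32 (adjusted p = 0.00081). Under rapamycin wild type read 7106, 5378, 7731 and 9815 and gcn4 read 3912, 2882, 3656 and 3165, a difference of -1.12 ± 0.32 (adjusted p = 0.016) that was lost without replicate 1, 3 or 4 (range of adjusted p over all alternatives 1.8e-07 to 0.28). THI7 in the single gln3 mutant differed from wild type by -0.22 ± 0.32 under 3-AT and 0.16 ± 0.32 under rapamycin, and neither was called. THI7 fell with rapamycin in wild type (-1.28 ± 0.32, adjusted p = 0.00081), in gcn2 (-1.41 ± 0.32, adjusted p = 0.00037) and in gcn2 gln3 (-1.14 ± 0.32, adjusted p = 0.0042, or -1.09 without the 3 arrays with a high actin ratio), where the call was lost without replicate 3 (range of adjusted p over all alternatives 3e-06 to 0.092).

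PHO3, the acid phosphatase gene, was lower in gcn2 and gcn4 than in wild type under 3-AT and higher in gln3 than in wild type under rapamycin. Untreated wild-type arrays read 10982, 12679, 12014 and 15437, and the untreated group means of all 6 strains lay between 9985 and 12891. With 3-AT wild type read 5237, 4944, 7511 and 8454, gcn2 read 1719, 2162, 3011 and 2175, gcn4 read 1821, 1555, 1297 and 1888 and gln3 read 7597, 10744, 9844 and 10365. Both gcn2 and gcn4 lay wholly below wild type, with differences of -1.52 ± 0.37 (adjusted p = 0.0031) and -1.97 ± 0.37 (adjusted p = 5.6e-05). The gcn2 call was lost without replicate 4 (range of adjusted p over all alternatives 6.6e-11 to 0.12). With rapamycin wild type read 2039, 1962, 3067 and 2341, gcn4 read 3758, 4026, 5205 and 3712 and gln3 read 8643, 6805, 6779 and 8015. Here the gln3 arrays lay wholly above wild type, a difference of 1.70 ± 0.37 (adjusted p = 0.0016), lost without replicate 4 (range over all alternatives 6.8e-12 to 0.072). The gcn4 arrays also lay wholly above wild type, but their difference of 0.84 ± 0.37 was not called (adjusted p = 0.21, or 0.0012 without the 3 arrays with a high actin ratio; range over all alternatives 8.3e-05 to 0.52). PHO3 was the 1 gene of the 10 that was higher in gln3 with rapamycin, where 3.60% of all probe sets were higher, and THI73 was the 1 that was lower, where 2.59% were. After centring on the median the split of all probe sets went from 247 higher and 178 lower to 195 and 224.

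Within strains, PHO3 fell with rapamycin in wild type (-2.45 ± 0.37, adjusted p = 2.5e-07) and in gcn2 (-1.70 ± 0.37, adjusted p = 0.0003). In gln3 the response was -0.76 ± 0.37 and did not pass (adjusted p = 0.12, or 0.001 without those 3 arrays; range over all alternatives 9.3e-05 to 0.37), and the difference between the gln3 and wild-type responses, 1.69 ± 0.53, did not pass either (adjusted p = 0.15). That result depended on the fit. Without the 3 arrays 1 of the 8 genes tested was called higher in that comparison, where 4.43% of all probe sets were called. Quantile normalization also gave 1 higher, against 1.27%. The contrast of 3-AT with rapamycin was 1.46 ± 0.37 in wild type, 3-AT being the higher (adjusted p = 0.0014), and -1.35 ± 0.37 in gcn4, 3-AT being the lower (adjusted p = 0.0026). That contrast differed between the strains by -2.81 ± 0.53 (adjusted p = 0.00026; 4.76% of all probe sets were called), a test added after the values were seen, and it was also lower than in wild type in gcn2 (-2.03, adjusted p = 0.025), gcn2 gln3 (-2.09, adjusted p = 0.011, or -2.08 without the 3 arrays) and gcn4 gln3 (-3.53, or -2.58 without the 3 arrays with a high actin ratio). In gln3 it differed from wild type by -1.11 ± 0.53 and was not called (adjusted p = 0.77). Without the 3 arrays the same test in gln3 called 2 of the 10 genes, 1 higher and 1 lower, against 2.74% of all probe sets. The gcn2 and gcn2 gln3 calls of that test were lost without replicate 1, 3 or 4 (ranges of adjusted p over all alternatives 4.6e-09 to 0.57 and 1.5e-08 to 0.19).

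**Figure D3:**
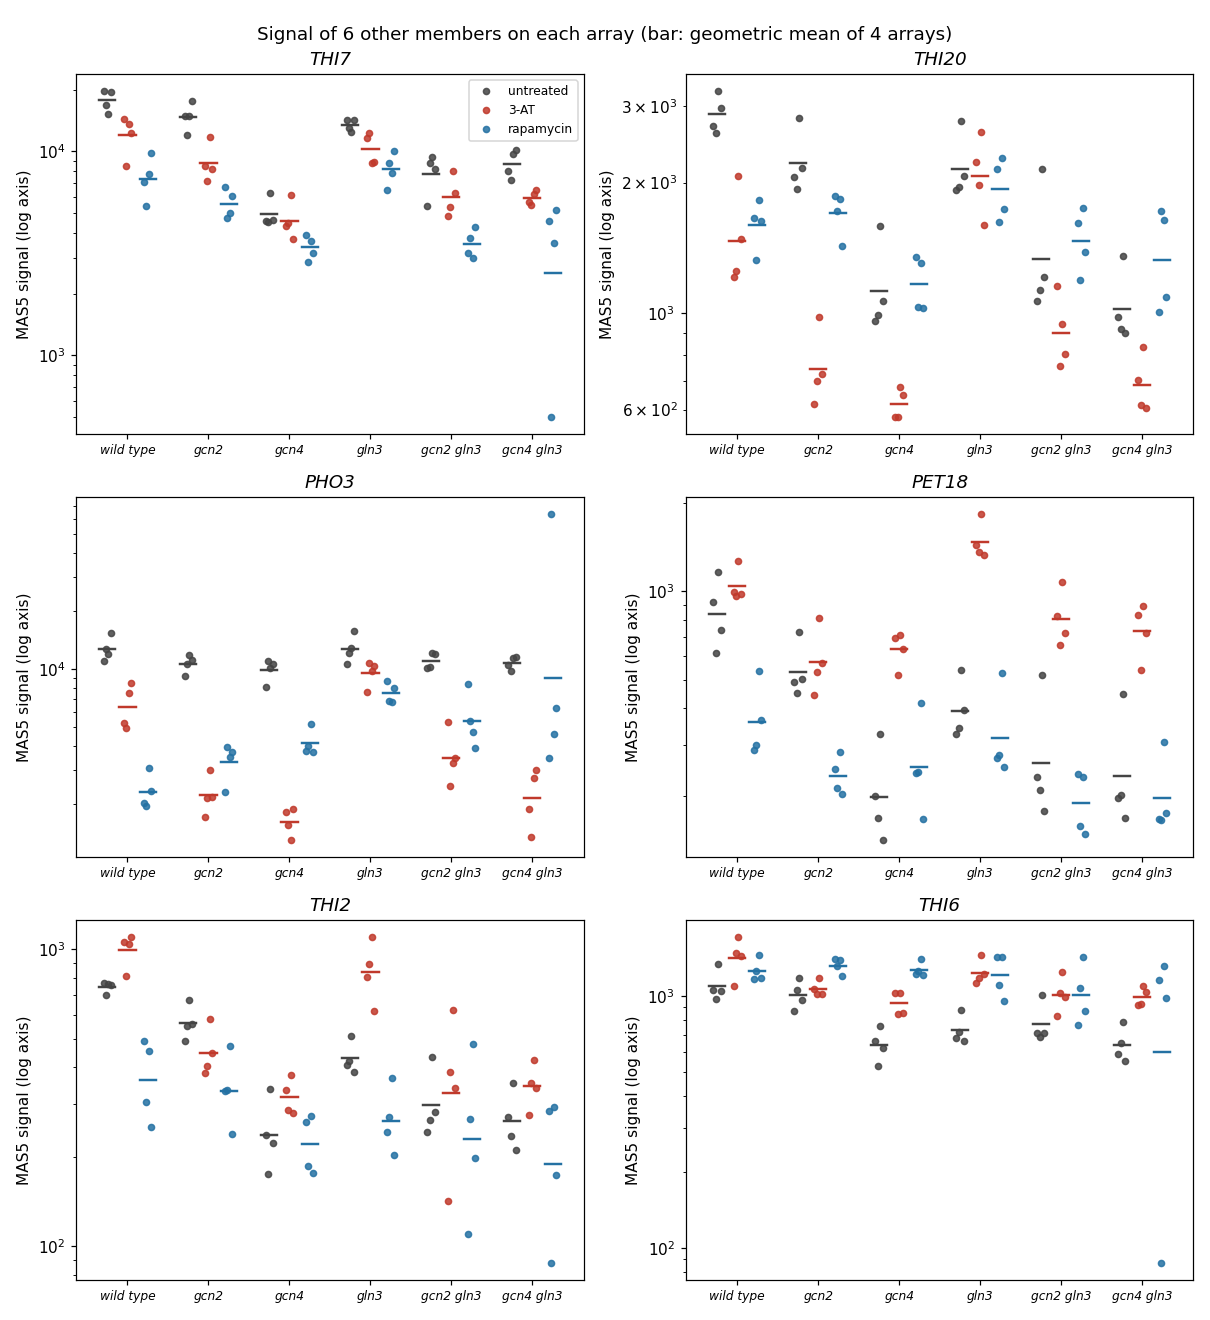
MAS5 signal of THI7, THI20, PHO3, PET18, THI2 and THI6 on each of the 72 arrays, on log axes, by genotype and treatment; each point is 1 array and each bar the geometric mean of 4 arrays. The 4 wild-type PHO3 arrays with 3-AT lie at 4944 to 8454 and those with rapamycin at 1962 to 3067, an order that is turned in gcn4, at 1297 to 1888 with 3-AT and 3712 to 5205 with rapamycin. The single far points in gcn4 gln3 with rapamycin (THI7, PHO3 and THI6) are the array with a high actin ratio.

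Of the regulators, THI2, the activator gene, was lower under 3-AT in gcn2 and gcn4, and THI3, the gene of the regulator that binds thiamine diphosphate, gave few calls. THI2 read 1055, 814, 1039 and 1104 in wild type with 3-AT, 384, 404, 582 and 449 in gcn2 and 335, 287, 378 and 281 in gcn4. Neither mutant overlapped wild type, and the differences were -1.15 ± 0.31 for gcn2 (adjusted p = 0.0093) and -1.65 ± 0.31 for gcn4 (adjusted p = 6.3e-05). The gcn2 call was lost without replicate 4 (range of adjusted p over all alternatives 1.9e-08 to 0.13). With rapamycin wild type read 489.8, 307, 456 and 251 and gcn4 read 262, 186, 274 and 176. These groups overlapped, and the difference of -0.72 ± 0.31 was not called (adjusted p = 0.2). The signal under 3-AT was above that under rapamycin by 1.46 ± 0.31 in wild type (adjusted p = 0.00016) and by 1.66 ± 0.31 in gln3 (adjusted p = 2.9e-05), and the same contrast was 0.53 ± 0.31 in gcn4 and not called. The difference of that contrast between gcn4 and wild type, -0.93 ± 0.44, did not pass (adjusted p = 0.27). Group means of THI3 ran from 948 in gcn2 gln3 with 3-AT to 1960.1 in wild type with 3-AT, and its 3 lowest arrays, at 357, 321 and 112, were the 3 arrays with a high actin ratio. It was called lower in gcn2 gln3 than in wild type with 3-AT (-1.19 ± 0.39, adjusted p = 0.025), and without those 3 arrays the difference was -0.77 ± 0.16 (adjusted p = 0.0002; range over all alternatives 2.2e-06 to 0.21).

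PET18 was the gene most often higher with 3-AT than with rapamycin. Wild-type arrays read 920.4, 616, 1159 and 736 untreated, 994, 966, 1265 and 977 with 3-AT and 287, 299.9, 533 and 364 with rapamycin. All 4 arrays with rapamycin lay below all 8 others. The contrast of 3-AT with rapamycin was 1.54 ± 0.29 in wild type (adjusted p = 1.8e-05), and for the single mutants it was 2.23 (gln3), 1.33 (gcn4) and 1.29 (gcn2), for the double mutants 1.90 (gcn4 gln3) and 2.08 (gcn2 gln3), or 1.81 and 2.18 without the 3 arrays with a high actin ratio. PET18 was called in all 6 strains, in comparisons that called 28.8% (gln3), 35.5% (wild type), 38.1% (gcn2), 41.2% (gcn2 gln3), 41.7% (gcn4) and 49.1% (gcn4 gln3) of all probe sets. The rise over untreated arrays was called in gln3, from 326, 343, 538 and 393 to 1431, 1364, 1839.6 and 1324 (1.91 ± 0.29, adjusted p = 2.5e-07), and in gcn2 gln3 (1.63 ± 0.29, adjusted p = 5.5e-06), but not in wild type (0.32 ± 0.29, adjusted p = 0.41) or gcn2 (0.11 ± 0.29, adjusted p = 0.8). The response in gcn2 gln3 exceeded that in wild type by 1.31 ± 0.41 (adjusted p = 0.043, or 1.30 and 0.035 without the 3 arrays with a high actin ratio; range over all alternatives 2e-05 to 0.38), and in gln3 the excess was 1.59 ± 0.41 and not called (adjusted p = 0.15). In the gln3 comparison 0.0582% of all probe sets were called. Without the 3 arrays 1 of the 8 genes tested was called higher there, against 0.815% of all probe sets. With the replicate number as a block 2 were higher, against 0.277%. Untreated gln3 arrays read lower than untreated wild type by -1.09 ± 0.29 (adjusted p = 0.046), a call that was lost under 7 alternatives (range of adjusted p 5.9e-07 to 0.51). Under 3-AT the gcn4 arrays, 694, 517, 711 and 635, all lay below wild type, yet the difference of -0.72 ± 0.29 did not pass (adjusted p = 0.082), while with the replicate number as a block it did (adjusted p = 0.00064; range over all alternatives 0.00012 to 0.25).

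In wild type the drugs were tested on 8 of the 10 genes, since THI4 and THI73 were chosen on the untreated wild-type arrays. With 3-AT, 2 of the 8 were lower than untreated, THI20 and PHO3 (-0.99 ± 0.37, adjusted p = 0.031), and none was higher. In the same comparison 13.6% of all probe sets were lower and 22.2% higher, 934 and 1523 in number, or 1383 and 1206 after centring on the median. The PHO3 call was lost without replicate 1, 3 or 4 (range of adjusted p over all alternatives 8.7e-07 to 0.13). With rapamycin 6 of the 8 were lower, PHO3, THI7, PET18, THI2, THI20 and THI80, and none was higher, against 15.7% of all probe sets lower and 22.2% higher. The median of the 10 genes was -0.10 under 3-AT, where that of all probe sets was 0.09, and -0.95 under rapamycin, where that of all probe sets was 0.14. The medians of the 10 are descriptions with no test, since they include THI4 and THI73 on the untreated wild-type arrays that chose them. Centring each array on its median moved the median of all probe sets under 3-AT to -0.09. When the 3 arrays with a high actin ratio were left out, 5 of the 8 were called under 3-AT, where 53.7% of all probe sets were called. These were the same 2 and THI7 lower (-0.57 ± 0.18, adjusted p = 0.0072), and THI3 (0.48 ± 0.15, adjusted p = 0.0064) and THI6 (0.37 ± 0.15, adjusted p = 0.028) higher. Over all alternatives the adjusted p of THI7, THI3 and THI6 ranged over 0.0015 to 0.35, 0.001 to 0.69 and 0.00078 to 0.65. With rapamycin that fit again called 6 of the 8, all lower, where 54.8% of all probe sets were called in either direction. Whether the drugs differ in the number of genes called was not tested. Under rapamycin PET18 changed by -1.21 ± 0.29 (adjusted p = 0.00049) and THI2 by -1.05 ± 0.31 (adjusted p = 0.006), the latter lost without replicate 4 (range of adjusted p over all alternatives 4.6e-08 to 0.12).

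In the mutants, rapamycin was tested on all 10 genes in gcn2, gln3 and gcn2 gln3. Against 11.8% of all probe sets, 3 of the 10 were lower with rapamycin in gcn2: THI7, PHO3 and PET18 (-1.18 ± 0.29, adjusted p = 0.001). In gcn2 gln3, 2 of the 10 were lower, THI7 and PHO3 (-1.04 ± 0.37, adjusted p = 0.031), against 10.5% of all probe sets; the PHO3 call was lost without replicate 3 or 4 (range of adjusted p over all alternatives 1.6e-08 to 0.26), and without the 3 arrays with a high actin ratio its difference was -1.25 ± 0.21. In gln3 limma called none of the 10, against 31.4% of all probe sets in either direction, and 4 of the 10 had an unadjusted p below 0.05. When the 3 arrays with a high actin ratio were left out, 5 were called in gcn2 (THI2 lower and THI6 higher being added), where 47.4% of all probe sets were called, 4 in gln3 (THI7, PHO3 and THI2 lower, THI6 higher), where 49.1% were, and 5 in gcn2 gln3 (THI80 lower, THI6 and THI3 higher being added), where 40.9% were. Tests of the difference from the wild-type response called 1 gene with rapamycin, THI20 in gcn2 gln3 (0.98 ± 0.28, adjusted p = 0.033; range over all alternatives 4.5e-05 to 0.36; 3.30% of all probe sets were called; 0.94 and adjusted p = 0.023 without the 3 arrays), and none in gcn2 or gln3. PHO3 in gcn2 gln3 was called too without them (1.20 ± 0.29, adjusted p = 0.0031, range over all alternatives 0.00051 to 0.71), against 7.86% of all probe sets. In gln3 1 of the 8 genes tested was called higher, against 4.43%. Under 3-AT, 3 of the 10 rose in gln3, THI73, PET18 and THI2 (0.96 ± 0.31, adjusted p = 0.015), against 21.4% of all probe sets higher, and the THI2 call was lost with median centring, with quantile normalization and without replicate 2 or 4 (range of adjusted p 4.2e-07 to 0.08). In gcn2, 3 of the 10 fell with 3-AT, THI20, THI73 and PHO3 (-2.27 ± 0.37, adjusted p = 1.7e-06), against 13.1% of all probe sets. In gcn2 gln3 PET18 rose while PHO3 (-1.67 ± 0.37, adjusted p = 0.00026) and THI20 (-0.57 ± 0.20, adjusted p = 0.02) fell, where 27.9% of all probe sets were higher and 11.3% lower; the THI20 call was lost in 4 alternatives (range of adjusted p 2.2e-06 to 0.13). In the fit without the 3 arrays these responses in gcn2 gln3 were 1.62 ± 0.31 for PET18, -1.87 ± 0.21 for PHO3 and -0.68 ± 0.20 for THI20, all called. The counts with 3-AT in that fit were 5 higher in gln3, where 48.5% of all probe sets were called. They were 4 lower in gcn2, where 55.8% were called, and 2 higher and 2 lower in gcn2 gln3, where 52.8% were.

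**Figure D4:**
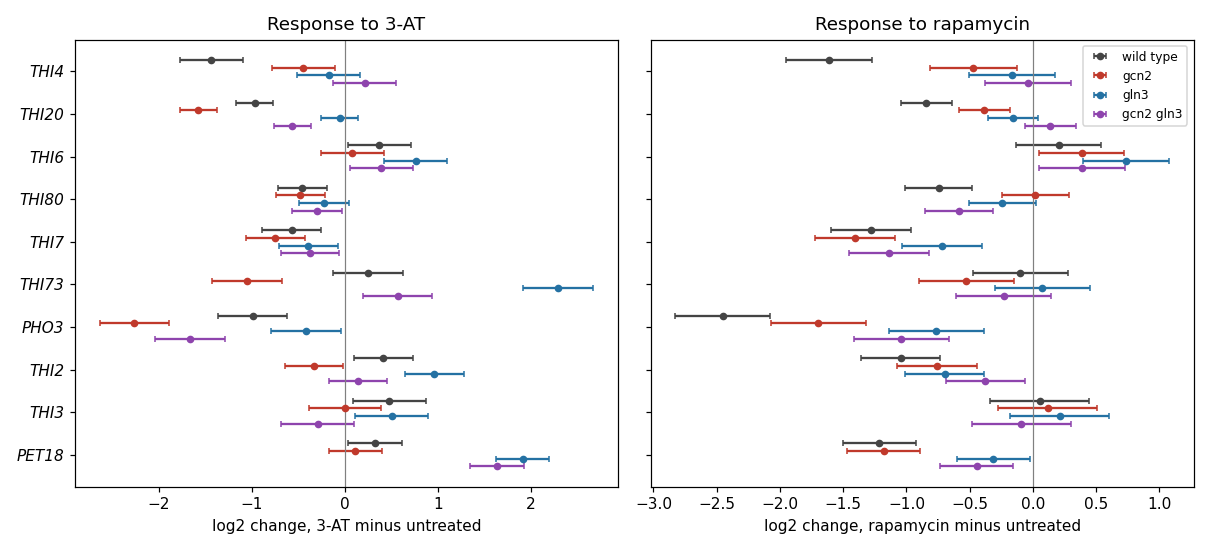
Log2 change of the 10 genes with 3-AT (left) and rapamycin (right) against untreated arrays in wild type, gcn2, gln3 and gcn2 gln3, the strains whose untreated arrays did not include gcn4 deletions; points are fitted differences and bars 1 SE on either side. THI73 (2.29) and PET18 (1.91) lie far to the right in gln3 with 3-AT, and PHO3 lies farthest to the left in wild type with rapamycin (-2.45).

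In the double mutants with 3-AT, 5 of the 10 genes were lower than wild type in each. In gcn4 gln3 these were THI73, PHO3, THI2, THI20 and THI7, against 6.67% of all probe sets, and in gcn2 gln3 they were THI73, THI2, THI3, THI7 and THI20, against 7.54%. Without the 3 arrays with a high actin ratio those 5 in gcn2 gln3 were called again, THI73 at -2.70 and THI2 at -1.20. PHO3 was added (-1.07 ± 0.21, adjusted p = 8.7e-05, range over all alternatives 9.7e-07 to 0.37). That fit called 25.1% of all probe sets there in either direction. Between gcn4 gln3 and gcn4 under 3-AT limma called none of the 10, where 0.393% of all probe sets were called, and 0 of the 10 had an unadjusted p below 0.05. For THI73 that difference was 0.07 ± 0.37. With rapamycin, gcn2 gln3 had 3 genes lower than wild type, THI73 (-2.97 ± 0.37, adjusted p = 6.6e-09), THI7 and PET18, and 1 higher, PHO3 (1.22 ± 0.37, adjusted p = 0.019), against 6.54% and 6.52% of all probe sets. The calls of THI7, PET18 and PHO3 there were lost without single replicates (ranges of adjusted p over all alternatives 2.2e-05 to 0.14, 7.1e-07 to 0.21 and 3.5e-05 to 0.21). These differences, leaving out the 3 arrays with a high actin ratio, were -3.12 ± 0.37 for THI73, -1.01 ± 0.20 for THI7, -1.03 ± 0.31 for PET18 and 1.01 ± 0.21 for PHO3, all called. In gcn4 gln3 with rapamycin, 7 genes were lower and PHO3 was higher with all 4 arrays, where 28.9% of all probe sets were called. Without the 3 arrays with a high actin ratio the share fell to 22.1%, and 3 of the 10 were called: THI73 (-2.80 ± 0.37, adjusted p = 2e-08), THI7 (-0.75 ± 0.20, adjusted p = 0.0038) and, in the higher direction, PHO3 (1.01 ± 0.21, adjusted p = 0.00022). Against gln3 under rapamycin, gcn4 gln3 had THI4, THI6 and THI7 called lower, where 6.94% of all probe sets were lower. The split of 220 higher and 477 lower went to 538 and 339 after centring on the median. Without those arrays the genes called lower were THI7 (-0.90 ± 0.20, adjusted p = 0.0017, range over all alternatives 6.7e-06 to 0.75) and THI20 (-0.67 ± 0.20, adjusted p = 0.049, range 2e-05 to 0.75). In that fit 4.05% of all probe sets were called.

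As a description of the untreated strains, the 10 genes in gcn4 ran from -3.56 for THI73 to -0.14 for THI80 relative to wild type. Between them lay PET18 at -2.07, THI7 at -1.85, THI4 at -1.71, THI2 at -1.66, THI20 at -1.35, THI6 at -0.78, THI3 at -0.37 and PHO3 at -0.35. The order was not the same as under 3-AT, where PHO3 had the second-widest difference of the 10. In untreated gcn2 limma called none of the 8 genes tested against wild type (0.146% of all probe sets were called), and 1 of the 8 had an unadjusted p below 0.05. Untreated gcn2 gln3 had 4 of the 8 called lower, PET18, THI2, THI7 and THI20, where 1.05% of all probe sets were lower. Of these, PET18 differed by -1.69 ± 0.29 (adjusted p = 7.1e-05) and THI20 by -1.11 ± 0.20 (adjusted p = 0.00023), both lost in a fit of the compared arrays alone (ranges of adjusted p over all alternatives 1.1e-12 to 0.054 and 8.3e-11 to 0.059).

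Several other genes of the pathway were higher with 3-AT in wild type. Of 15 listed, 7 had a probe set of their own: THI21 and THI22, relatives of THI20, THI72 and NRT1, relatives of THI7, the activator gene PDC2, the vitamin B6 transporter gene TPN1, and PHO5, the phosphate-repressible acid phosphatase gene that neighbours PHO3 on chromosome II. With 3-AT in wild type 5 of the 7 were higher and none lower (22.2% of all probe sets were higher): THI72 (2.04 ± 0.40, adjusted p = 3.4e-05), TPN1 (1.29 ± 0.20), THI21 (0.95 ± 0.31), PHO5 (0.79 ± 0.18) and NRT1 (0.46 ± 0.18). A second probe set of THI72 gave 0.79 ± 0.34 and was not called, nor were THI22 (0.22 ± 0.24) and PDC2 (-0.12 ± 0.18). In gcn4 against wild type with 3-AT, 2 of the 7 were lower, NRT1 and TPN1 (-0.73 ± 0.20, adjusted p = 0.0057), and none was higher. NRT1 was not above background on any gcn4 array with 3-AT, so wild type was at least 1.80-fold higher (adjusted p = 3.8e-09). PHO5 rose with rapamycin in wild type, from 780.3, 868, 786 and 751 to 1641, 1545, 1773 and 1289 (0.96 ± 0.18, adjusted p = 1.8e-05), while PHO3 fell. The 2 phosphatases are close in sequence, and whether either probe set reads the other transcript was not tested. The pyrimidine synthesis genes THI5, THI11, THI12 and THI13 were read by 1 shared probe set, which differed by 0.52 ± 0.40 between gcn4 and wild type under 3-AT (adjusted p = 0.45) and cannot tell the 4 genes apart. The vitamin B6 genes SNZ2 and SNZ3, likewise read by 1 probe set, gave -0.30 ± 0.37 there, and SNO2 and SNO3 gave -0.37 ± 0.28, neither called.

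Of 12 measured genes of enzymes that use thiamine diphosphate, 1 was lower in gcn4 than in wild type with 3-AT, ILV2, the acetolactate synthase gene of branched-chain amino acid synthesis (-1.08 ± 0.35, adjusted p = 0.024), and 1 was higher, PDC5, a pyruvate decarboxylase gene (0.76 ± 0.20, adjusted p = 0.0033). Their median was 0.07, and 15.5% of all probe sets were called there. With 3-AT in wild type 2 of the 12 were higher, ILV2 (1.45 ± 0.35) and ARO10, which encodes a decarboxylase of aromatic amino acid breakdown (4.27 ± 0.29), and none was lower, where 22.2% of all probe sets were higher and 13.6% lower. With rapamycin 3 were higher, ARO10 (4.26 ± 0.29), PDC6 (2.77 ± 0.40) and ILV2 (1.07 ± 0.35), and PDC5 was lower (-0.76 ± 0.20), against 22.2% and 15.7% of all probe sets. In gcn4 gln3 with rapamycin 6 of the 12 were lower than wild type, or 3 without the arrays with a high actin ratio. All probe sets were called there at 28.9% and 22.1% in either direction. Without those 3 arrays the counts over the 12 were 3 higher and 2 lower in gcn4 with 3-AT, against 31.5% of all probe sets called. They were 2 higher and 4 lower with 3-AT in wild type, against 53.7%, and 6 higher and 1 lower with rapamycin in wild type, against 54.8%.

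Over the 18 group means, the genes whose log2 signal was most like that of THI73 were ARG1, an arginine synthesis gene (Pearson r = 0.86), NRT1 (0.86), THI2 (0.83), BNA1, a gene of NAD synthesis (0.81), and SSU1, a sulfite exporter gene (0.80). For THI4 they were BPL1, the biotin protein ligase gene (0.78), THI7 (0.70), THI2 (0.69), BNA2, another gene of NAD synthesis (0.66), and LCL1 (0.64). Leaving out the 3 arrays with a high actin ratio put JHD2 in place of SSU1 and MSH4 in place of BNA2. These correlations describe 18 points that share strains and drugs, and no test is attached to them. Among the 10 genes themselves the highest was 0.84, between THI2 and PET18, and PHO3 was at 0.08 with THI73 and -0.42 with THI6.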

How the data were processed

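Biotinylated cRNA from 5 ug of total RNA per sample was hybridised to 72 arrays, per the labels' protocols. The deposited values are MAS5 signal intensities on a linear scale, made with GCOS and MAS5 per the submitters' processing notes; the sources used here name no software versions. Every array has the same 2% trimmed mean, 1001 after rounding, so a signal is an amount relative to the rest of its array, and the number of arrays limits the precision.

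Computed here: signals were floored at 16.5, the 10th percentile of all values, and turned to log2 with no further scaling. The fit excludes 60 control probe sets. Of the rest, 6504 read 1 gene, 328 several and 2443 none by GEO's platform annotation, and the brightest probe set stood for a gene. A probe set was tested if it lay above its array's 30th percentile, here called background, on at least 4 arrays. limma 3.58.1 (R 4.3.3) fitted 18 group means with 54 residual degrees of freedom over 6869 probe sets, with Benjamini-Hochberg adjustment within each comparison. The fit was tested on 6869 simulated probe sets for the comparison of gcn4 with wild type under 3-AT. Of 100 changed by a log2 difference of 1, 65% were recovered, and of 100 changed by 2, 94%, with 6 false calls among the unchanged ones. The simulated noise was normal and independent between arrays, with 1 spread per probe set. The real arrays deviate together by replicate number and 3 have a high actin ratio, so these rates need not hold for them.

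THI4 and THI73 were not tested where untreated wild-type arrays enter, and none of the 10 where untreated gcn4 or gcn4 gln3 arrays enter. The 10 genes, the gene lists and the tests were chosen with earlier results of these data known. Named genes are the 10, the deleted genes, the other measured genes of the pathway, up to 4 thiamine diphosphate enzymes with the smallest adjusted p in a comparison, and the 5 genes most correlated with THI4 and with THI73. Tests of the contrast between the drugs across strains and the replicate block without 3 arrays were added after the values were seen.

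Replicate numbers come from the sample titles. Arrays of 1 number deviated together from their group means in every pair (r over 0.1) in 4 of the 8 main comparisons: gcn4 and gcn2 with wild type under 3-AT, gcn4 gln3 with gln3 under 3-AT, and rapamycin with untreated in wild type. In these the paired fit, with the number as a block, is given where it changed a call. Over all pairs of arrays from different groups the median r was 0.25 for the same number and -0.07 for different numbers. The main fit does not model this. Alternatives were other floors, median centring, quantile normalization, no filter and a stricter one, the mean of a gene's probe sets, array weights, only the compared arrays, the replicate block, and leaving out each replicate or the 3 arrays with a high actin ratio. No sequences were used here.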

Additional observations from a re-analysis of the deposited data

Results flagged for a closer look

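In 18 of the 180 sets of 4 readings, 1 array stood apart: its gap to the nearest of the others, over the range of the 4, was above Dixon's 95% critical value for 4 readings. For independent, normally distributed readings chance alone does this in about 1 of 20 sets. The readings here were signals on the linear scale and the 180 sets share the same arrays, so that rate need not hold. Replicate 3 was the far array in 12 of the 18, and 4 of the 18 were on arrays with a high actin ratio. For THI4 these were replicate 3 of gcn2 gln3, at 523 untreated and 401 with 3-AT, and for THI20 replicate 3 of untreated gcn4 at 1589.5 and of untreated gcn2 gln3 at 2155. THI6 had replicate 3 of untreated gcn2 gln3 at 1007, and THI7 had replicate 3 of untreated gcn4 at 6248. PET18 had replicate 3 at 1265 in wild type with 3-AT, 525 in gln3 with rapamycin, 518 in untreated gcn2 gln3, 445 in untreated gcn4 gln3 and 307 in gcn4 gln3 with rapamycin. THI73 had replicate 3 of gln3 with rapamycin at 715. The dim THI80 had replicate 1 at 169 in wild type and 168.5 in gcn2 gln3, both with rapamycin, and THI2 had a low replicate 2 in untreated wild type at 703. Replicate 2 of gcn4 gln3 with rapamycin stood apart for THI73 at 829, PHO3 at 64007 and THI3 at 112.

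A drug response differed between strains, by its own limma test (adjusted p below 0.05), for 8 of 98 combinations of gene and comparison. The response to 3-AT in gcn2 gln3 exceeded that in wild type by 1.31 for PET18. For THI20 the response to rapamycin in gcn2 gln3 exceeded that in wild type by 0.98. The log2 contrast of 3-AT with rapamycin, set against the same contrast in wild type, was -1.07 for THI20 in gcn2 and -0.83 in gcn4 gln3, and for PHO3 it was -2.03 in gcn2, -2.81 in gcn4, -2.09 in gcn2 gln3 and -3.53 in gcn4 gln3. Of these 8, the PHO3 difference in gcn4 passed under every alternative tried, and each of the other 7 was lost under at least 1; the THI20 difference in gcn4 gln3 was -0.71 and not called without the 3 arrays with a high actin ratio. What the replicate numbers share, and its part in these values, was not tested.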

How the results depend on the processing

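The counts of called genes depended on the fit, as did the share of all probe sets called. In gcn4 against wild type under 3-AT the count of 5 became 8 without the 3 arrays with a high actin ratio, with only the compared arrays, with array weights, and with the replicate block without those 3 arrays. The paired fit with the replicate block gave 6. All probe sets were called there at 15.5% in the main fit, 31.5% without the 3 arrays and 19.8% with the replicate block. Shares below are given in that order, and those under the other alternatives are not given here. In gcn2 against wild type under 3-AT, 5 became 9 with the replicate block without the 3 arrays (shares 9.65%, 21.2% and 12.5%). In gcn4 gln3 against gln3 under 3-AT, 5 became 8 with array weights and with that block (shares 18.7%, 35.8% and 23.5%). In gcn4 against wild type under rapamycin, 2 became 4 without the 3 arrays, 5 with the replicate block or array weights and 7 with the block without the 3 arrays. The shares there were 6.59%, 19.7% and 10.4%. In gln3 against wild type under rapamycin, 2 became 4 with the block without the 3 arrays (shares 6.19%, 18.5% and 10.7%). In gcn4 gln3 against gln3 under rapamycin, 3 became 0 with only the compared arrays and 6 with either replicate block (shares 10.1%, 4.05% and 19.6%). Among the 5 genes above background on all arrays 1 was called there. With 3-AT in wild type, 2 of the 8 tested genes became 5 without the 3 arrays, 6 with only the compared arrays or array weights and 7 with the block without the 3 arrays. The shares there were 35.8%, 53.7% and 40.6%. Leaving out each replicate in turn gave counts of 1 to 2 for 3-AT in wild type, 4 to 6 for rapamycin in wild type, 2 to 5 for gcn2 under 3-AT, 5 to 6 for gcn4 under 3-AT, 1 to 2 for gcn4 and for gln3 under rapamycin, and 4 to 5 and 2 to 5 for gcn4 gln3 against gln3 under 3-AT and rapamycin. With fewer arrays these fits have less power by construction; the cause of the other changes was not tested.

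Over 478 gene and comparison pairs, 6779 values under the alternatives kept direction and side of the threshold, 435 newly passed, 191 no longer passed and 4 turned sign. The last were PHO3 in gcn4 gln3 against gln3 under rapamycin, at -0.71 with the replicate block without the 3 arrays; THI3 with rapamycin in gcn2 gln3, at 0.44 without the 3 arrays and 0.38 with that block; and THI3 in the drug contrast of gcn4 gln3 set against wild type, at -0.52 with that block. In the 4 comparisons where the replicate numbers did not pair every array, the block is reported only here. So is the 4 of 10 lower it gave in untreated gcn2 gln3 against gcn2, where 1.12% of all probe sets were called. In the 4 where they did, the paired fit with the replicate block added PET18 in gcn4 and THI7 in gcn4 gln3 under 3-AT. The counts for gcn2 under 3-AT and for rapamycin in wild type stayed at 5 and 6, where that fit called 12.5% and 42.0% of all probe sets. THI80, above background on 52 of 72 arrays, is limited by its low signal.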

Other observations

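ARO10, whose product decarboxylates keto acids in aromatic amino acid breakdown with thiamine diphosphate as cofactor, was low in the strains without GCN2, untreated and under both drugs, and not in those without GCN4, GLN3 or both. With 3-AT its signals were 3305, 3022, 3811 and 2942 in wild type, 3263, 3037, 3713 and 3889.5 in gcn4 and 2610.1, 2152, 2661 and 2432 in gln3. In gcn2 they were 122, 105, 100.1 and 95.5, above background on no array, and in gcn2 gln3 201, 74.1, 91.1 and 58.5. Wild type was at least 28.5-fold higher than gcn2 (adjusted p = 6.9e-22). With rapamycin gcn2 read 393, 205, 411 and 410.1 and wild type 3449, 2985, 3296 and 3200.2, a log2 difference of -3.24 ± 0.29 (adjusted p = 1.1e-13). Untreated, gcn2 read 63, 19, 35 and 62.4 and gcn2 gln3 43.5, 22.9, 30.3 and 29.5, above background on no array of either, while wild type read 192, 158, 192 and 138 and gcn4 323, 221, 333 and 318. Both strains without GCN2 share this, and whether it comes with the deletion or with another difference of these strains cannot be told apart.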
